A study of Mus musculus with 14 samples.

Results

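In kidneys of female mice, 10 genes of the vascular endothelial growth factor (VEGF) system and of endothelial cells were followed. They were the receptor genes Flt1, Kdr and Flt4, the ligand genes Vegfa and Vegfc, the angiopoietin receptor gene Tek, and Cdh5, Pecam1, Emcn and Nos3, which endothelial cells express. The 10 genes were taken by symbol from the 56980 genes of the count tables, and each symbol matched 1 gene. All 10 passed the filter on low counts, a total of more than 10 counts over the 14 libraries.

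The mice were wild-type (WT) females of CD-1, an outbred stock, and RNA of the whole kidney of each mouse was sequenced in bulk at 18 weeks of age, with 1 library per mouse. Term mice without diabetes (T-ND, n = 4) and preterm mice without diabetes (PT-ND, n = 3) received no STZ. Term diabetic (T-D, n = 4) and preterm diabetic (PT-D, n = 3) mice were given streptozotocin (STZ), a toxin of pancreatic beta cells used to induce hyperglycaemia. Per the study's methods, mice of all groups were injected with cationic ferritin for imaging shortly before the kidneys were taken, and glomerular filtration rate was measured with an injected fluorescent tracer. Preterm pups also differed from term pups in Caesarean delivery and in rearing by foster mothers that were given acepromazine, and these cannot be told apart from preterm birth here. Some PT-D mice and no T-D mouse had a second round of STZ, and which of the sequenced mice these were is not given. Libraries are named by group and by the replicate number of their label, so that PT-D 1 is the first PT-D mouse.

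Between 16697246 and 28673176 reads per library were counted on genes. T-D 4 stood apart, with the lowest normalization factor of the 14 libraries (0.839, against up to 1.09) and counts for 19589 genes, the fewest. It was also the lowest of the 14 libraries for 7 of the 10 genes. The log2 fold change of each of the 10 genes between PT-D and T-D is therefore also given without it. The names of T-ND 1, T-ND 2, T-D 1, PT-ND 2 and PT-D 1 carry the suffix a, the meaning of which is not stated. The labelled tissue was checked on markers of proximal tubule (5 genes), thick ascending limb (4 genes) and podocytes (7 genes), and each of these genes had counts in every group.

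VEGF-A is made in the kidney by podocytes and tubular cells and acts on receptors of the neighbouring endothelium. KDR (VEGF receptor 2) carries most of its signal, whereas FLT1 (VEGF receptor 1) binds VEGF-A tightly and also exists as a soluble form that traps it. FLT4 (VEGF receptor 3) is the receptor of VEGF-C and is best known from lymphatic vessels, and capillaries of the kidney express it too. VE-cadherin (Cdh5) and PECAM-1 hold endothelial cells together, endomucin (Emcn) is a surface glycoprotein of capillaries and veins, TIE2 (Tek) keeps vessels quiescent, and endothelial nitric oxide synthase (Nos3) makes the vasodilator nitric oxide.

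The 250 bases of GRCm39 before the start of the canonical transcript are printed for Flt4, Flt1, Nos3 and Emcn. Levels of Flt4, Flt1 and Nos3 in every PT-D library were above those of all other libraries, and those of Emcn were not. Cdh5 was above all other libraries as well, but its stretch, which holds neither marked motif, is not printed. The printed bases run 5′ to 3′ on the strand of the gene. Capitals mark AGGAAG, a core that ETS family factors bind, and GATAA, a core that GATA factors bind, each searched on both strands, so that CTTCCT and TTATC mark the reverse strand. The marked letters of the 2 motifs do not overlap. The Flt4 stretch is chr11:49499840-49500089 on the plus strand, that of Flt1 is chr5:147662822-147663071 on the minus strand, that of Nos3 is chr5:24569537-24569786 on the plus strand and that of Emcn is chr3:137046544-137046793 on the plus strand.

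Flt4: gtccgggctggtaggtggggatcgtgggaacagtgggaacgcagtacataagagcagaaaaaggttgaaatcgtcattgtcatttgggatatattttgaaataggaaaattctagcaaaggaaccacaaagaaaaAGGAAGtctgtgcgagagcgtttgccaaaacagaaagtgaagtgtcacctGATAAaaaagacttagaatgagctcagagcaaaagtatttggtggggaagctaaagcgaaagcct
Flt1: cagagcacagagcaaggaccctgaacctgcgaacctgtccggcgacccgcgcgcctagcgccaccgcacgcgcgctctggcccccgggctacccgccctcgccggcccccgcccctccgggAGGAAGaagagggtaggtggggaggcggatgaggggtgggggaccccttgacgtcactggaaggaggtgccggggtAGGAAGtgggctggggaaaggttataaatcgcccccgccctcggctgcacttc
Nos3: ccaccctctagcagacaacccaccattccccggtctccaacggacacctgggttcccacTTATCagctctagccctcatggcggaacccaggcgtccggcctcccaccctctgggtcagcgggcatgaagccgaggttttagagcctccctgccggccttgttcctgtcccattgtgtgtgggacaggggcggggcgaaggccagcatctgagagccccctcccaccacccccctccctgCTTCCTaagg
Emcn: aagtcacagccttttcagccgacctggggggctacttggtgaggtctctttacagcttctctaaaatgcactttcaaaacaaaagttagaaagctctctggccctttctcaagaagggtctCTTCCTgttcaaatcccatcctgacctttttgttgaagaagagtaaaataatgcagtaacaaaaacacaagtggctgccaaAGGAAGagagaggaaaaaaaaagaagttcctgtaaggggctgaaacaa

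AGGAAG stood in the stretches of 5 of the 10 genes (Flt1, Flt4, Vegfc, Nos3 and Emcn), against 28.9% of 21631 promoters of the same length. GATAA stood in 3 of the 10 (Flt4, Vegfa and Nos3), against 22.4% of promoters. The hypoxia response core ACGTG stood in none of the 10 stretches and in 17% of promoters. Genes with and without higher levels in PT-D both carried AGGAAG, and Cdh5 and Kdr, like Tek and Pecam1, held neither AGGAAG nor GATAA. These matches describe letters in the window and no binding.

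Levels of the 10 genes differed widely when set per length. Vegfa had the highest level, with 33.9 ± 7.87 CPM per kb of exon (SD, n = 14 libraries). Cdh5 (9.92 ± 5.35) and Emcn (9.47 ± 1.69) followed, and did not differ beyond their spread. Pecam1 (6.10 ± 1.47) and Kdr (5.18 ± 2.23) came next, ahead of Tek (3.68 ± 1.30) and Flt1 (3.43 ± 1.62), and each of these pairs overlapped. Flt4 was the receptor gene with the lowest level, at 1.93 ± 1.202 CPM per kb. Vegfc (0.824 ± 0.387) and Nos3 (0.783 ± 0.413) had the lowest levels of all 10. The order depended on the group. In T-ND the level of Emcn (10.1 ± 1.16, n = 4) was above that of Cdh5 (6.36 ± 2.23), and in PT-D that of Cdh5 (18.7 ± 1.88, n = 3) was above that of Emcn (8.46 ± 0.71).

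Flt1, Kdr, Flt4, Cdh5 and Nos3 in PT-D were at 2.22 to 3.21 times their PT-ND level, and Flt4, Cdh5 and Nos3 were at 2.555 to 2.93 times their T-ND level. Vegfa, Vegfc, Tek, Pecam1 and Emcn passed edgeR's test in none of the 5 pairs of groups. No gene of the 10 passed it between T-D and T-ND or between PT-ND and T-ND. Between the diabetic groups, 6 of the 10 genes lay higher in every PT-D library than in every T-D library, against 12.4% of all genes, and edgeR's test called none of them after adjustment. Counts were compared with edgeR's quasi-likelihood test and p-values were adjusted by Benjamini and Hochberg's method over all genes tested. A gene was called at an adjusted p-value under 0.05. In bulk RNA, more endothelial cells and more RNA of these genes per cell cannot be told apart.

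**Figure D1:**
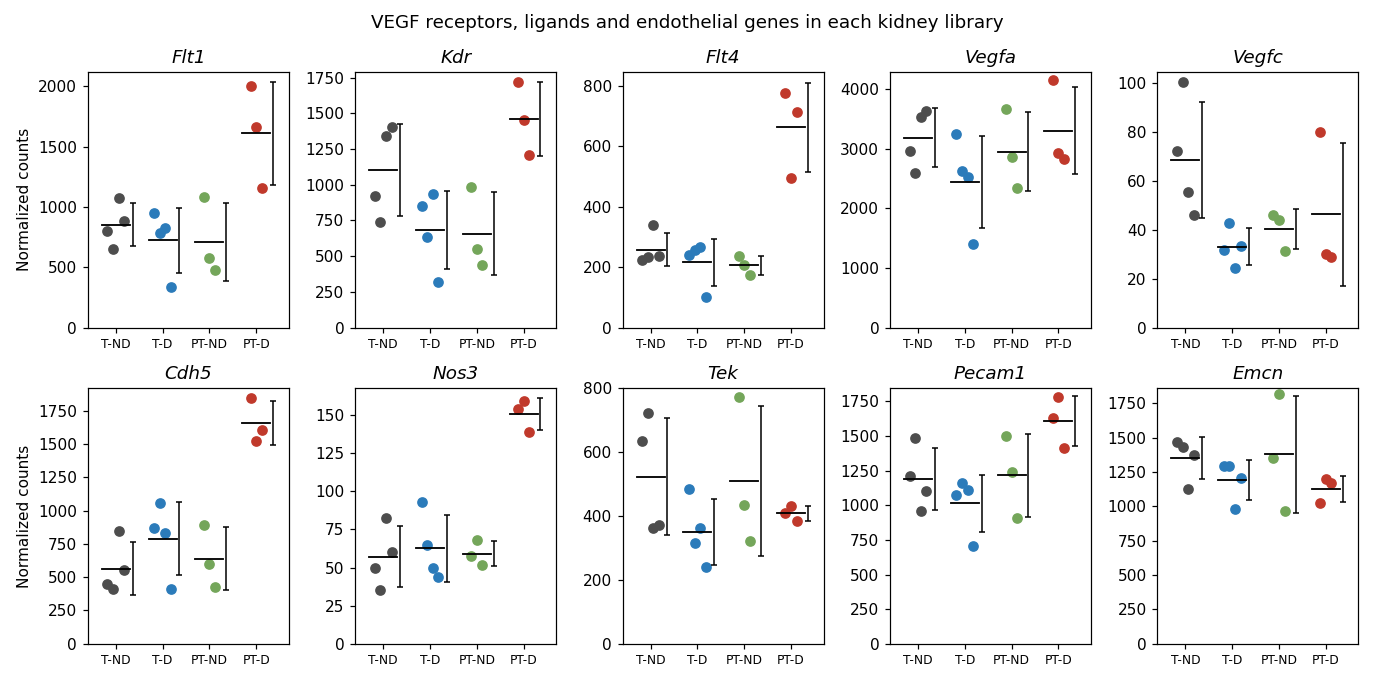
Normalized counts (TMM-scaled, y axis from 0) of the 10 genes in each of the 14 libraries, by group on the x axis. Points are libraries, horizontal lines are group means and error bars beside them are SD. The 3 PT-D libraries sit above all other libraries for Flt1, Flt4, Cdh5 and Nos3, whereas for Emcn, Tek, Vegfa and Vegfc they overlap each other group.

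The first comparison asked what preterm birth adds in diabetic mice (PT-D vs. T-D). None of the 10 genes was called, against 0.193% of 22294 genes tested (43 genes) in either direction. At an unadjusted p under 0.05 there were 6 of the 10 genes (Flt1, Kdr, Flt4, Cdh5, Nos3 and Pecam1), against 22.3% of all genes. These were the 6 that did not overlap between the groups. DESeq2's test called these 6 as higher in PT-D, against 6.37% of the 14488 genes to which it gave an adjusted p. The median log2 fold change of the 10 genes was 0.87, and that of all genes was 0.06. Without T-D 4, edgeR called 2 of the 10, Flt4 (log2 fold change 1.38, adjusted p = 0.0183) and Cdh5 (0.85, adjusted p = 0.0379). Over all genes it called 241 without T-D 4, against 43 with it.

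The combined difference of preterm birth and STZ was read from PT-D vs. T-ND. Higher levels in PT-D were called for 3 of the 10 genes (Flt4, Cdh5 and Nos3), against 1.61% of 22310 genes tested. DESeq2 called 4, adding Flt1, against 8.80% of its genes. The same 4 genes did not overlap between the groups, against 12.0% of all genes. These calls depended on single libraries, each of which leaves fewer samples when left out. None was called without T-ND 1, T-ND 4 or PT-D 3, Flt4 alone was called without PT-D 2, and Nos3 was called only without T-ND 3 among these 7 fits. Without T-ND 1, T-ND 4, PT-D 2 or PT-D 3, 28 to 47 genes were called among all, against 616 with all libraries.

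Within preterm mice (PT-D vs. PT-ND), 5 of the 10 genes were called as higher with STZ (Flt1, Kdr, Flt4, Cdh5 and Nos3), against 7.14% of 22303 genes tested. DESeq2 called the same 5, against 13.2%, and the same 5 did not overlap between the groups, against 18.7%. The calls of Flt4, Cdh5 and Nos3 held when each library in turn was left out. Flt1 and Kdr were lost without PT-ND 2 or without PT-ND 3, which left 3 calls, and Flt1 was lost without PT-D 1. The calls among all genes fell from 2881 to 1105 without PT-ND 3, and to fewer still without PT-ND 2. Without PT-D 1 they fell much less. When each library in turn was left out, the log2 fold change was 0.96 to 1.60 for Flt1 and 0.93 to 1.55 for Kdr.

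Within term mice (T-D vs. T-ND), edgeR called none of the 10 genes, against 0.0673% of 22275 genes, and DESeq2 none, against 2.81%. An unadjusted p under 0.05 was found for 3 of the 10 (Kdr, Vegfc and Tek), against 11.8% of genes. Vegfc was also the 1 gene of the 10 that lay lower in every T-D than in every T-ND library, against 3.76% of genes. Between preterm and term mice without diabetes (PT-ND vs. T-ND), edgeR again called none, against 0.0809% of 22254 genes, and DESeq2 none, against 2.00%. Here 2 of the 10 had an unadjusted p under 0.05 (Kdr and Vegfc), against 10.7%, and Vegfc alone was lower without overlap, against 5.54%.

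Whether the difference with STZ was itself larger in preterm than in term mice was tested as an interaction over all 14 libraries. Kdr and Flt4 were called, 2 of the 10, against 2.82% of 22339 genes in this direction. DESeq2 called 4, adding Flt1 and Nos3, against 8.64%. The call of Kdr was lost without T-ND 1, 3 or 4, PT-ND 2 or 3, or any of the 3 PT-D libraries. That of Flt4 was lost without PT-ND 3 or PT-D 3. Over all genes, 76 to 892 were called in either direction in these fits, against 1392 with all libraries. Comparisons that share a group share its libraries and are not independent.

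**Figure D2:**
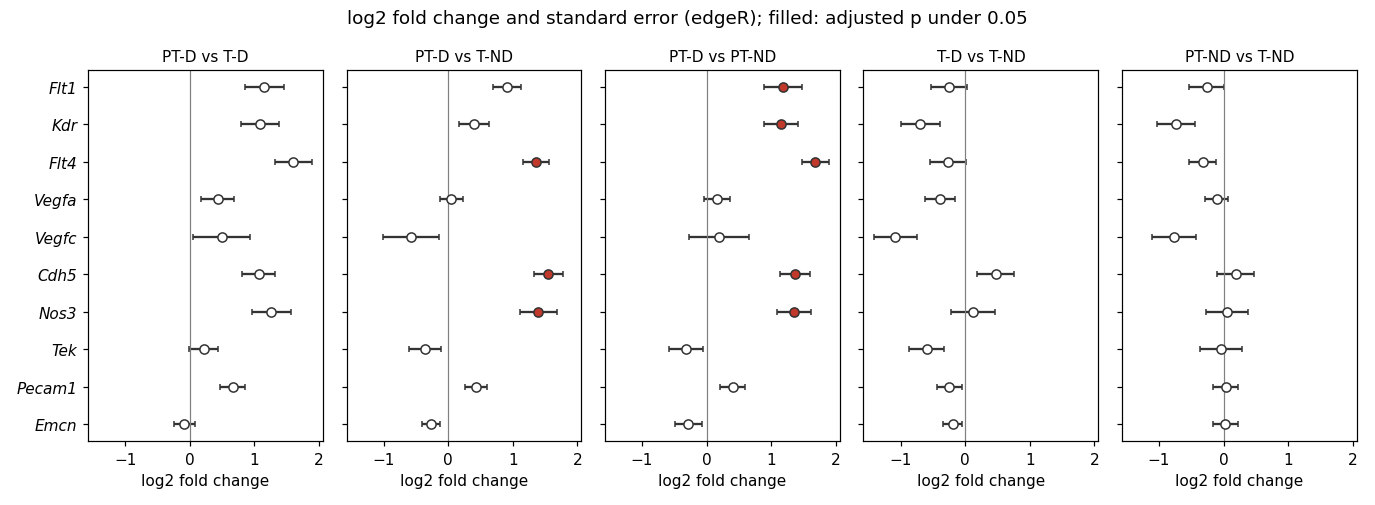
The log2 fold change of each of the 10 genes (x axis) in 5 pairs of groups, with bars of 1 standard error from edgeR's fit. Filled points passed an adjusted p of 0.05, which 5 genes did in PT-D vs. PT-ND and 3 in PT-D vs. T-ND. Values for Emcn lie between −0.29 and 0.03 in all panels.

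Flt4 (ENSMUSG00000020357.4, GRCm39 chromosome 11 from 49500090 to 49543582, plus strand) differed most among the receptor genes between PT-D and each other group. In PT-D 1, 2 and 3 it had 778.0, 495.8 and 714.9 normalized counts. The 4 T-D libraries had 238.9, 257.1, 268.3 and 101.7, the 4 T-ND libraries 222.2, 233.8, 340.4 and 236.5, and the 3 PT-ND libraries 237.8, 205.8 and 174.2. Every PT-D library was thus above each of the other 11, whereas T-ND, T-D and PT-ND overlapped. Against PT-ND its log2 fold change was 1.68 (SE 0.21), with an adjusted p of 0.00249 in edgeR's test. The value was 1.35 against T-ND (SE 0.20, adjusted p = 0.0203) and 1.61 against T-D (SE 0.29, adjusted p = 0.0575), the latter 1.38 without T-D 4. The interaction was 1.94 on the log2 scale (SE 0.39, adjusted p = 0.0218) and 1.70 (adjusted p = 0.0117) without T-D 4. A noncoding gene on the opposite strand overlaps its exons over 237 bases, and counts without strand do not separate these genes. Such genes also overlap exons of Vegfc over 300 of 2860 bases, of Cdh5 over 87 bases and of Vegfa over 64 bases.

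Flt1 (ENSMUSG00000029648.14, chromosome 5 from 147498414 to 147662826, minus strand) had 2006, 1662 and 1160 normalized counts in PT-D 1 to 3. In T-D it had 949.0, 784.8, 826.1 and 333.4, in PT-ND 1080, 579.1 and 473.1, and in T-ND 797.3, 650.3, 1077 and 883.6. PT-D lay above all other libraries, but PT-D 3 (1160) was close to PT-ND 1 (1080) and T-ND 3 (1077). Flt1 was 2.26 times higher in PT-D than in PT-ND (log2 fold change 1.18, SE 0.29, edgeR adjusted p = 0.0268). The adjusted p was 0.0520 against T-ND (0.91, SE 0.21) and 0.0866 against T-D (1.15, SE 0.30). Without T-D 4 the last was 0.0541 (0.91). Counts per gene do not separate the membrane receptor from its soluble form.

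Kdr (ENSMUSG00000062960.11, chromosome 5 from 76093487 to 76139884, minus strand) followed another pattern, since T-ND was high as well. PT-D had 1720, 1452 and 1205 normalized counts and T-ND had 920.8, 738.0, 1339 and 1401, so that these 2 groups overlapped. T-D had 848.2, 637.3, 934.3 and 320.5, and PT-ND had 984.6, 547.4 and 439.6, all below PT-D. Kdr in PT-D had a log2 fold change of 1.15 against PT-ND (SE 0.27, edgeR adjusted p = 0.0208), 1.09 against T-D (SE 0.30, adjusted p = 0.0899) and 0.40 against T-ND (SE 0.23, adjusted p = 0.306). Without T-D 4 the value against T-D was 0.85 (adjusted p = 0.0553). In T-D vs. T-ND it was −0.69 (SE 0.31, adjusted p = 0.413), or −0.45 (adjusted p = 0.484) without T-D 4, and in PT-ND vs. T-ND −0.74 (SE 0.30, adjusted p = 0.428). The interaction was 1.83 (SE 0.47, adjusted p = 0.0375), and 1.60 (adjusted p = 0.0384) without T-D 4.

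The ratio of Kdr to Flt1 within a library was 1.135 to 1.585 in T-ND and 0.812 to 1.131 in the other 10 libraries. T-ND was the group with relatively more Kdr, and PT-D (0.857 to 1.04) did not stand apart from T-D or PT-ND in this ratio. The ratio of Flt4 to Kdr was 0.342 to 0.593 in PT-D and 0.169 to 0.403 in the other groups, with overlap. Ratios within a library do not depend on its scaling, and these pairs were chosen after the values were seen.

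edgeR called neither ligand gene in any comparison. Vegfa (ENSMUSG00000023951.19, chromosome 17 from 46327919 to 46343309, minus strand) had 4154, 2933 and 2834 normalized counts in PT-D and 3247, 2624, 2522 and 1399 in T-D. It had 3664, 2859 and 2339 in PT-ND and 2969, 2587, 3541 and 3636 in T-ND. All groups overlapped. Over the 14 libraries the pattern of Vegfa was nonetheless nearer to those of Kdr and Flt1 than that of most genes, as given with the distances between patterns. The log2 fold change of PT-D was 0.43 against T-D (SE 0.26, edgeR adjusted p = 0.349) and 0.24 (adjusted p = 0.490) without T-D 4. It was 0.16 against PT-ND (SE 0.21) and 0.05 against T-ND (SE 0.18), with adjusted p-values of 0.652 and 0.894.

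Vegfc (ENSMUSG00000031520.7, chromosome 8 from 54530257 to 54640131, plus strand) was counted with 26 to 110 reads per library, so its values are less precise than those of the receptors. T-ND had 72.5, 100.5, 55.5 and 46.2 normalized counts, T-D 31.7, 42.7, 24.4 and 33.5, and PT-ND 45.9, 44.1 and 31.2. PT-D had 80.3, 30.1 and 28.8, and PT-D 1 alone was above the other groups' medians. The log2 fold change in T-D vs. T-ND was −1.08 (SE 0.33, edgeR adjusted p = 0.265). Against T-D, PT-D had a log2 fold change of 0.49 (SE 0.45, adjusted p = 0.551), which was 0.50 without T-D 4 and −0.18 without PT-D 1. Within T-ND, the libraries with the suffix a (T-ND 1 and 2) were the higher pair.

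Cdh5 (ENSMUSG00000031871.10, chromosome 8 from 104828231 to 104871143, plus strand) had 1845, 1525 and 1603 normalized counts in PT-D. The other 11 libraries reached at most 1053, in T-D 2. T-D had 866.3, 1053, 829.9 and 408.0, PT-ND 894.9, 596.0 and 429.2, and T-ND 446.8, 410.1, 845.3 and 551.4. Cdh5 in PT-D was at 2.93 times its T-ND level (log2 fold change 1.55, SE 0.23, edgeR adjusted p = 0.0203) and at 2.59 times its PT-ND level (1.37, SE 0.23, adjusted p = 0.00726). Against T-D the log2 fold change was 1.07 (SE 0.26, adjusted p = 0.0775), and 0.85 (adjusted p = 0.0379) without T-D 4. In T-D vs. T-ND it was 0.47 (SE 0.29, adjusted p = 0.536), and the interaction was 0.88 (SE 0.43, adjusted p = 0.219). Without T-D 4 these were 0.70 (adjusted p = 0.302) and 0.67 (adjusted p = 0.297).

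Nos3 (ENSMUSG00000028978.13, chromosome 5 from 24569787 to 24589475, plus strand) was counted with 34 to 212 reads per library. PT-D had 154.1, 159.5 and 139.1 normalized counts, all above the other 11 libraries. T-D had 92.9, 64.6, 49.5 and 43.8, PT-ND 57.4, 67.9 and 51.9, and T-ND 49.9, 35.6, 82.8 and 60.2. Nos3 in PT-D had a log2 fold change of 1.40 against T-ND (SE 0.28, edgeR adjusted p = 0.0380), 1.35 against PT-ND (SE 0.26, adjusted p = 0.0105) and 1.26 against T-D (SE 0.30, adjusted p = 0.0754), the last 1.13 (adjusted p = 0.0663) without T-D 4. Exons of Nos3 overlap the antisense gene Gm15587 over 1338 bases and Atg9b over 297 bases. Reads on shared bases were left uncounted and the counts do not use strand, so the level of Nos3 is uncertain by these stretches.

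Pecam1 and Emcn also mark endothelium, and edgeR called neither in any comparison. Pecam1 (ENSMUSG00000020717.20, chromosome 11 from 106543689 to 106641454, minus strand) had 1630, 1780 and 1415 normalized counts in PT-D and 1077, 1159, 1109 and 707.9 in T-D, with no overlap. PT-ND (1503, 1237 and 905.7) and T-ND (1210, 1488, 956.4 and 1100) reached into the range of PT-D. The log2 fold change against T-D was 0.66 (SE 0.19, edgeR adjusted p = 0.0959), or 0.53 (adjusted p = 0.0703) without T-D 4, and against PT-ND 0.40 (SE 0.19, adjusted p = 0.187).

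Emcn (ENSMUSG00000054690.18, chromosome 3 from 137046794 to 137138999, plus strand) had the narrowest spread over the 14 libraries of the 10 genes, with a coefficient of variation of 17.8%. PT-D had 1021, 1199 and 1168 normalized counts, T-D 1291, 1293, 983.8 and 1203, PT-ND 1351, 1816 and 964.6, and T-ND 1466, 1434, 1125 and 1374. PT-D lay within the range of the other groups. The log2 fold change of PT-D was −0.08 against T-D (SE 0.16, the same without T-D 4), −0.29 against PT-ND (SE 0.21) and −0.27 against T-ND (SE 0.13), with edgeR adjusted p-values of 0.803, 0.402 and 0.252.

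Tek (ENSMUSG00000006386.16, chromosome 4 from 94627291 to 94763224, plus strand) had 410.4, 431.8 and 383.9 normalized counts in PT-D. T-ND (635.7, 723.4, 363.5 and 370.8) and PT-ND (773.9, 435.4 and 320.8) spread more widely, and T-D had 484.7, 314.4, 362.0 and 240.7. The log2 fold change of PT-D was 0.22 against T-D (SE 0.22, edgeR adjusted p = 0.605), −0.37 against T-ND (SE 0.25, adjusted p = 0.393) and −0.32 against PT-ND (SE 0.27, adjusted p = 0.473). Without T-D 4 the first was 0.08, and without PT-ND 1 the last was 0.10. As with Vegfc, T-ND 1 and 2 were the higher pair of T-ND. With the name suffix as a covariate the difference from T-ND was −0.20 (adjusted p = 0.568).

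To set the 10 genes against the endothelium as a whole, their log2 CPM was taken relative to the mean log2 CPM of 24 other endothelial genes in the same library. This reference was itself higher in PT-D, with 4.50, 4.13 and 4.06, than in T-D, with 3.76, 3.83, 3.82 and 3.03, and T-D 4 was the lowest of all. It was 3.68 to 3.82 in T-ND and 3.53 to 4.06 in PT-ND. Relative to it, Flt4, Kdr and Cdh5 were higher in every PT-D than in every T-D library, 3 of the 10 genes, against 1.09% of all genes tested. A gene with no change falls on this scale, since the reference was higher in PT-D. On the log2 scale the difference was 1.05 for Flt4, 0.56 for Kdr and 0.52 for Cdh5. Each had p = 0.0571 in a two-sided exact permutation test, the smallest p that 3 against 4 libraries allow. Adjusted by Benjamini and Hochberg's method over the 10 genes, each was 0.1905. Against T-ND, Kdr was not higher, since T-ND 3 and T-ND 4 had 2.375 and 2.410 and PT-D 1.841 to 2.039. Flt4 and Cdh5 in every PT-D library were above T-ND too. Without T-D 4 the differences were 0.92, 0.43 and 0.43. Leaving out any of the 7 libraries cannot make groups overlap that did not, so these 3 genes stayed apart by construction. Others joined them, where fewer libraries are left to overlap. The share of all genes was not taken without single libraries, and 1.09% is that with all 7. Without T-D 1, Flt1 and Nos3 were higher too, which made 5 genes. Without PT-D 1, Nos3 was higher and Vegfa and Vegfc were lower in PT-D, and without PT-D 3, Flt1 was higher and Emcn lower. Tek was lower without T-D 2 and Emcn without T-D 3.

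Nos3 and Flt1 overlapped on this scale, with differences of 0.68 and 0.60 (exact permutation p = 0.114 each). Pecam1 had a difference of 0.06 (exact permutation p = 0.686). Emcn had one of −0.70 (exact permutation p = 0.114) and Tek one of −0.36 (p = 0.171 by the same permutation test).

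**Figure D3:**
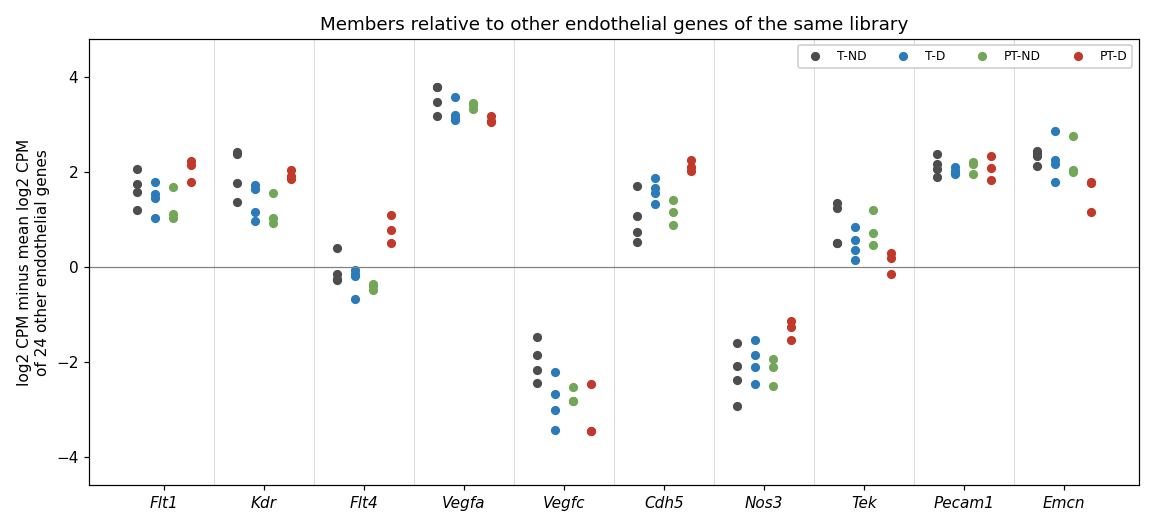
The log2 CPM of each of the 10 genes minus the mean log2 CPM of 24 other endothelial genes of the same library (y axis), with 1 point per library. Flt4 is above 0 in the 3 PT-D libraries and below 0 in all T-D and PT-ND libraries, whereas Emcn and Tek in PT-D lie at the low end and overlap T-D.

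The genes changed their order within a library. The ratio of Cdh5 to Emcn was 1.81, 1.27 and 1.37 in PT-D and at most 0.844 in the other 11 libraries. The ratio of Flt4 to Emcn was 0.762, 0.413 and 0.612 in PT-D and at most 0.303 elsewhere, in T-ND 3. Cdh5 to Tek was 3.53 to 4.50 in PT-D and 1.70 to 3.35 in T-D. Cdh5 to Pecam1 overlapped, with 0.857 to 1.13 in PT-D, 0.576 to 0.909 in T-D and up to 0.884 in T-ND. Nos3 to Pecam1 was 0.0896 to 0.0983 in PT-D and at most 0.0865 elsewhere. These pairs were chosen after the values were seen and were not tested.

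**Figure D4:**
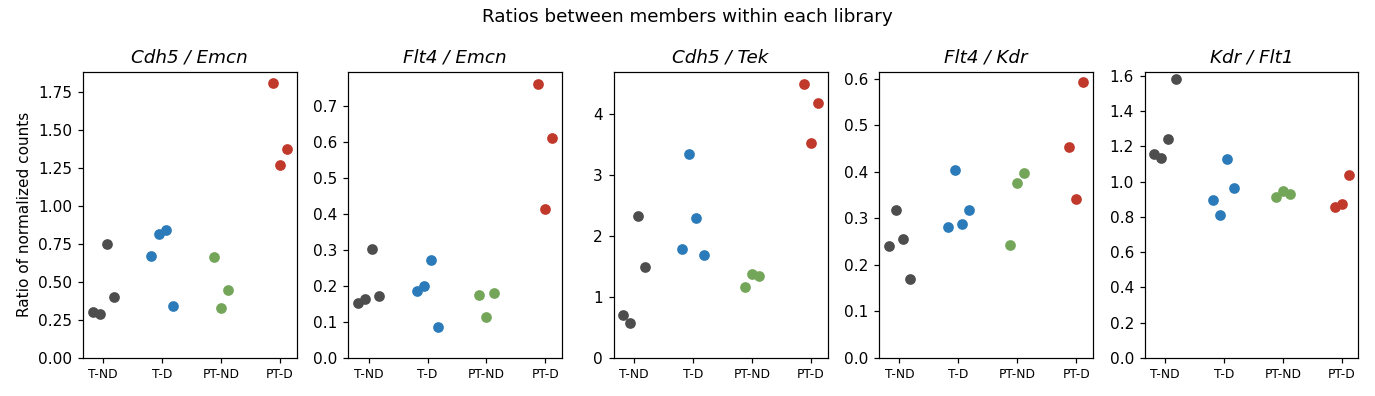
Ratios of normalized counts between pairs of the 10 genes in each library (y axis from 0), by group on the x axis. The 3 PT-D libraries lie above all others for Cdh5/Emcn, Flt4/Emcn and Cdh5/Tek, whereas Kdr/Flt1 is highest in T-ND.

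The VEGF pathway list held 10 further genes, which were ligands, co-receptors and partners of the receptors. Of these, Nrp1 was called as higher in PT-D against both T-ND and PT-ND, and Vegfb as lower against PT-ND. Over all genes, 1.61% were called as higher against T-ND and 7.14% against PT-ND, with 1288 of 22303 called as lower there. Nrp1 encodes neuropilin 1, a co-receptor that binds VEGF-A together with KDR. It had 984 ± 233 normalized counts (SD, n = 3) in PT-D, 356 ± 147 (n = 4) in T-D, 370 ± 148 (n = 3) in PT-ND and 448 ± 71.2 (n = 4) in T-ND. Its log2 fold change in PT-D was 1.41 against PT-ND (SE 0.27, edgeR adjusted p = 0.0111), 1.13 against T-ND (SE 0.18, adjusted p = 0.0235) and 1.46 against T-D (SE 0.29, adjusted p = 0.0664). Its interaction of 1.74 was called too (SE 0.43, adjusted p = 0.0336). Vegfb, a ligand of FLT1, had 1004 ± 184 in PT-D and 1509 ± 148 in PT-ND (log2 fold change −0.59, SE 0.17, adjusted p = 0.0419). edgeR called no other gene of this list in any comparison, and none of the 10 was called against T-D, where the median log2 fold change was 0.28.

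Of 5 other angiopoietin and TIE genes, Tie1 and Svep1 were called as higher in PT-D against T-ND, against 1.61% of all genes. Tie1 encodes the partner receptor of TIE2, and Svep1 a ligand of TIE1. Tie1 had a log2 fold change of 0.70 (SE 0.15, edgeR adjusted p = 0.0407) and Svep1 one of 1.23 (SE 0.20, adjusted p = 0.0260). Against PT-ND both were uncalled, with 0.15 for Tie1 (SE 0.22, adjusted p = 0.714) and 0.66 for Svep1 (SE 0.23, adjusted p = 0.0862). edgeR called Angpt2, a ligand of TIE2 that can block it, in no comparison.

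In the list of 24 other endothelial genes, 22 had higher values in PT-D than in T-D, and none was called by edgeR. DESeq2 called 5 as higher, against 6.37% of its genes, and the median log2 fold change was 0.39. The smallest p-values among those with at least 50 normalized counts were those of Sox17 and Mmrn2 (edgeR adjusted p = 0.0664 each) and Clec14a (adjusted p = 0.0689). In PT-D vs. PT-ND, 3 of the 24 were called as higher, against 7.14% of all genes. These were Egfl7, Mmrn2 and Cd34, with a median of 0.45 over the list. In PT-D vs. T-ND, Tie1, which is in both lists, was the 1 gene called, against 1.61% of all genes called as higher. The median there was 0.52. The interaction was called for Clec14a (2.96, SE 0.55), Egfl7 (2.16, SE 0.39) and Sox17 (2.15, SE 0.39) on the log2 scale. Over all genes, 2.82% were called in this direction. As for Kdr, Sox17, an endothelial transcription factor, was high in both PT-D (155 ± 34.8 normalized counts) and T-ND (158 ± 33.8), and low in T-D (54.8 ± 13.2). Egfl7 and Cd34 are named because they were called, outside the rule for naming genes.

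Markers of podocytes and mural cells had higher sums in PT-D than in the other groups. Podocyte markers, 7 genes, summed to 532 to 699 CPM in PT-D, above T-ND (256 to 362), T-D (163 to 506) and PT-ND (289 to 494), and none was at 0. Of these 7, edgeR called 6 as higher in PT-D against T-ND, 5 against PT-ND and none against T-D. Over all genes, 1.61% were called as higher against T-ND and 7.14% against PT-ND. Pericyte and smooth muscle markers, 6 genes, summed to 164 to 185 CPM in PT-D and to at most 123 in any other group, with 3 of 6 called against PT-ND and 1 against T-ND. Leukocyte markers, 8 genes, overlapped, with sums of 117 to 230.0 CPM in PT-D and 53.5 to 134 in the other groups, with 2 called against PT-ND and 1 against T-ND. In PT-D vs. T-D, edgeR called none of the genes of these 3 lists. DESeq2 called 4 of 7, 2 of 6 and 2 of 8 as higher, against 6.37% of its genes. Their part in the differences of the 10 genes was not tested.

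Markers of proximal tubule, blood and fat overlapped too between PT-D and each other group. Proximal tubule markers summed to 5873 to 7261 CPM in PT-D and 4527 to 7467 in the other groups, with none of 5 called in any comparison. Thick ascending limb markers summed to 954 to 2265 CPM in PT-D, below T-ND (2565 to 3833). They overlapped T-D (1335 to 2577) and PT-ND (2043 to 2868). Umod, the gene of uromodulin, was called as lower in PT-D against T-ND. Of 5 blood genes, 4 had enough counts and none was called, and their sum ranged from 11.01 to 989.6 CPM over the libraries. None of 4 adipocyte genes was called, with sums from 0.0451 to 66.8 CPM.

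For Flt1, Kdr, Flt4 and Cdh5, the genes with the most similar pattern over the 14 libraries were sought among 12155 genes. The measure was the root mean square difference of log2 CPM after each gene was centred and scaled to an SD of 1, which is 0 for the same pattern and had a median of 1.32 to 1.34. The same libraries, and so the same depth and group differences, stand behind each value. Flt1 was most like Nbeal1 (0.28), Notch4, an endothelial Notch receptor (0.29), Adgrf5 (0.30), the RNA-binding gene Qki (0.31) and Podxl (0.33). Kdr was most like Proser1 (0.32), Akap8 (0.36), Flt1 (0.36), Dnal1 (0.37) and Lats2 (0.38).

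Flt4 was most like Myo1e, the gene of an unconventional myosin of podocytes, with a distance of 0.18, followed by Cyyr1 (0.25), Rnf20 (0.26), Camk2d (0.27) and Ubr2 (0.29). Myo1e had 1226 ± 148 normalized counts in PT-D (SD, n = 3) and 667 ± 106.5 (PT-ND) to 714 ± 134 (T-ND) in the other groups. Cdh5 was most like the type IV collagen gene Col4a2 (0.24), Rps6ka3 (0.26), the laminin gene Lamc1 (0.27), Inf2 (0.29) and Map4k4 (0.29). Col4a2 had 6063 ± 775 normalized counts in PT-D and 2209 ± 910 in T-ND. Emcn was far from each of the 4, at 1.47 to 1.57, farther than the median gene, and Tek was at 1.13 to 1.39. Vegfa was at 0.56 from Kdr, nearer than Flt4 (0.58), and at 0.61 from Flt1, 0.83 from Flt4 and 0.96 from Cdh5. Pecam1 was at 0.67 from Flt1, 0.72 from Flt4, 0.80 from Kdr and 0.86 from Cdh5, and Nos3 at 0.46 from Cdh5. These were below the median gene in each case.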

How the data were processed

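Per the labels, un-stranded mRNA libraries of 14 mouse kidneys were sequenced. The authors deposited raw counts of reads per gene for each library, which STAR produced on GRCm39 (submitters' processing notes, version not given in the sources used here), with reads that fall on more than 1 gene left uncounted. These counts, both strands together, were the input here. Totals of reads on no gene or on several genes (2.40% to 5.42% and 6.86% to 8.09%) were left out.

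Symbols and positions came from GENCODE mouse release 39, and the study's methods name an earlier release. IDs were matched without their version for 56236 of 56980 genes. Groups were taken from the labels. Genes with more than 10 counts over the 14 libraries (22339) were normalized by TMM and tested with edgeR 4.0.16 (quasi-likelihood, each pair of groups fitted on its own libraries, the interaction on all 14) in R 4.3.3, and DESeq2 1.42.0 was an alternative. Normalized counts are TMM-scaled CPM times the mean effective library size, and log2 CPM used a prior count of 2. The scripts were checked on simulated data. Mice are the replicates. Per the study's methods, litter mates of treated mice were used as controls, and which mice shared a litter is not given.

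The genes and lists were chosen with earlier results of these data known. Beside the 10 genes, a rule took the 3 genes of each list with the smallest p in PT-D vs. T-D. These had to average 50 normalized counts or more. It also took the 5 genes most alike to each of Flt1, Kdr, Flt4 and Cdh5. The text names only some of the genes that the rule took from the lists. Genes called outside this rule are named as well and were chosen after their values were seen. Alternatives were other normalizations, filters, models, thresholds and references, and leaving out each library.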

Additional observations from a re-analysis of the deposited data

Results flagged for a closer look

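Within T-ND, Flt4 was far higher in T-ND 3, at 340.4 normalized counts, than in the nearest of the other 3 libraries, at 236.5, a gap of 0.879 of the whole range of the group. Of 20 groups tested in this way, 1 stood out, and chance alone gives about 1 in 20.

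The difference with STZ was larger in preterm than in term mice for Kdr, by 1.83 on the log2 scale, and for Flt4, by 1.94, both past the interaction test of edgeR. For Kdr the value was 1.60 to 2.25 when each library was left out, and the call held in 6 of 14 such fits. For Flt4 it was 1.70 to 2.11 and the call held in 12 of 14.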

How the results depend on the processing

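Over the alternatives, 960 of 1047 values of single genes kept their direction and side of the threshold, 32 lost a call, 28 gained one and 27 changed sign. The labels state no pairing of mice by replicate number. Deviations from the group mean had correlations of −0.285 to 0.299 between same-numbered libraries (19 pairs), and of −0.328 to 0.429 between others. Such correlations cannot show whether mice shared a litter. In PT-D vs. T-D, the count of genes called was 0, and 6 with DESeq2, 6 without a filter on low counts, 4 with all libraries in a joint fit, 1 with the replicate block, and 0 to 2 when single libraries were left out. In PT-D vs. T-ND it was 3, 0 with the replicate block and 0 to 4 without single libraries. In PT-D vs. PT-ND it was 5, and 3 to 5 without single libraries. For the interaction it was 2, 4 with DESeq2 and 0 to 3 without single libraries. Calls over all genes changed too. In PT-D vs. T-D they were 43, and 1323 to 2284 with DESeq2, without the filter or in the joint fit. The replicate block gave 87, and leaving out single libraries 26 to 241. In PT-D vs. T-ND they were 616, and 28 to 47 without T-ND 1, T-ND 4, PT-D 2 or PT-D 3. They fell with the replicate block and rose without T-ND 3. In PT-D vs. PT-ND they were 2881, and 1105 without PT-ND 3. The interaction had 1392, 3138 with DESeq2 and 76 without PT-D 3. Relative to the endothelial list, 3 to 6 genes did not overlap in either direction without single libraries. Of these, 3 to 5 were higher and 0 to 2 lower in PT-D. This count cannot fall below the 3 genes found with all libraries, and the share of all genes was not taken. The cause of these changes in count was not tested.

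Changes of sign were all among genes not called. Vegfa in PT-D vs. T-ND was −0.0019 with upper quartile normalization, Tek in PT-ND vs. T-ND 0.11 with the name suffix as covariate, and Pecam1 there −0.011 with the replicate block. Without single libraries, log2 fold changes were −0.18 to 0.75 for Vegfc in PT-D vs. T-D, −0.16 to 0.15 for Vegfa in PT-D vs. T-ND and −0.14 to 0.37 for Nos3 in T-D vs. T-ND. In PT-D vs. PT-ND they were −0.56 to 0.10 for Tek, −0.035 to 0.34 for Vegfa and −0.46 to 0.44 for Vegfc. In PT-ND vs. T-ND they were −0.12 to 0.27 for Nos3, −0.49 to 0.21 for Tek, −0.17 to 0.21 for Pecam1, −0.22 to 0.23 for Emcn, −0.16 to 0.44 for Cdh5 and −0.32 to 0.035 for Vegfa. The interaction of Emcn was −0.31 to 0.14, and the level of Pecam1 relative to the endothelial list was −0.062 to 0.19. Vegfc and Nos3, with the fewest counts, had the widest counting error.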

Other observations

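Genes of particular vessel types were read in the same libraries. All 4 markers of glomerular endothelium had higher values in PT-D than in T-D, with a median log2 fold change of 0.96 and no call by edgeR. In PT-D vs. PT-ND 2 of the 4 were called as higher by edgeR, against 7.14% of all genes. These were Plat, which encodes tissue plasminogen activator (1.08, SE 0.30, adjusted p = 0.0417), and Gata5 (3.33, SE 0.98, adjusted p = 0.0486). Gata5 had a mean of 3.89 normalized counts. Of 6 arterial genes, Efnb2 (0.78, SE 0.22, adjusted p = 0.0387) and Gja5 (1.32, SE 0.37, adjusted p = 0.0384) were called as higher in PT-D than in PT-ND. Of 5 lymphatic genes Pdpn alone was called against PT-ND (1.00, SE 0.19, edgeR adjusted p = 0.0106), a gene that podocytes express as well. In this comparison 3 of the 5 were higher and 2 lower, with a median of 0.04. Against T-D it was again 3 and 2, with a median of 0.15. Ccl21a had −1.03 against PT-ND (SE 0.41, edgeR adjusted p = 0.125) and −0.50 against T-D (SE 0.43, adjusted p = 0.524). Prox1, a lymphatic transcription factor, is also listed by the paper among kidney development genes. It had 50.8 ± 34.2 normalized counts in PT-D (n = 3) and 46.0 ± 8.01 in T-D (n = 4). In PT-ND it had 64.7 ± 15.8 and in T-ND 141 ± 80.0. Whether Flt4 followed lymphatic vessels was not tested.

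None of 11 genes of nitric oxide synthesis and signalling other than Nos3 was called by edgeR in any comparison. DESeq2 called 1 of them as higher in PT-D vs. T-D, against 6.37% of its genes. In PT-D vs. PT-ND, edgeR called 4 of 12 genes of the hypoxia response, against 2881 of 22303 genes in either direction. Epas1 (0.78, SE 0.22) and Hif1a (0.63, SE 0.16) were higher, both of which encode oxygen-regulated transcription factors, and Egln1 (−0.52, SE 0.15) and Pdk1 (−0.68, SE 0.20) were lower. None of 6 immediate early genes was called, and their summed level was 180 to 653 CPM in PT-D and 131.5 to 408 CPM in the other groups. Genes called outside the rule for naming genes (Gata5, Gja5, Hif1a, Egln1 and Pdk1) were chosen after their values were seen.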
